A study of Mus musculus with 70 samples.

Results

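The 10 genes described here are immediate-early response genes, which cells transcribe within minutes of a growth factor, serum, adhesion or stress signal without first making new protein. They are the AP-1 subunit genes Fos, Fosb, Fosl1, Jun and Junb, the transcription factor genes Egr1, Atf3 and Myc, and the genes Dusp1 and Ier3, whose products act back on MAP kinase signalling. They were chosen by name, and every probe of the array whose transcript accession belongs to one of them was taken. Each gene had 1 probe, so 10 of 55681 probes and 10 of 21154 named genes entered.

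Levels were measured on single-colour Agilent mouse arrays in RENCA cells, a mouse renal adenocarcinoma line, made to express GFP. P0 is the parental line in culture (2 RNA samples), and P1 to P6 are cells recovered after 1 to 6 successive rounds of growth in female BALB/c mice, 6 weeks old. In the KPT route the cells were injected into the kidney and recovered from the kidney tumour (5, 2, 2, 3, 5 and 5 RNA samples from P1 to P6). In the T-LM route they were injected into the tail vein and recovered from lung metastases (5, 2, 3, 4, 6 and 4), and in the K-LM route they were injected into the kidney and recovered from lung metastases (1, 1, 5, 3, 4 and 3). All groups, P0 included, descend from the same GFP-expressing line, and recovered cells were grown in culture for about 2 weeks before RNA extraction, so every level is that of cultured cells and not of cells inside a tumour. The labels do not say whether samples of a group came from separate mice, so the p-values measure the spread between these samples only.

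Immediate-early genes are normally kept low in resting cells and are induced for a short time through the ERK, JNK and p38 kinases acting on SRF, TCF and CREB at their promoters. Their mRNAs decay fast, and several of their products shut the response down, among them the phosphatase Dusp1. FOS proteins must pair with a JUN protein to bind DNA as AP-1, a regulator of invasion and proliferation genes in many carcinomas. The state of each culture at harvest, such as its density or the time since its last medium change, is not given in the sources used here.

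Fos, Fosb and Dusp1 are the members that rose together from P4 to P5, so the 250 bases before their transcription starts are shown. The sequences are from RefSeq (GRCm38.p6), 5′ to 3′ on the gene's strand, with matches to the searched motifs in capitals: TATAAA in Fos, GCGNGGGCG (an EGR site) in Fosb, and TGACGTCA (a CRE) followed by CACGTG (an E-box) in Dusp1. They lie at chr12:85473640-85473889 on the plus strand (Fos), chr7:19310046-19310295 on the minus strand (Fosb) and chr17:26508473-26508722 on the minus strand (Dusp1).
Fos: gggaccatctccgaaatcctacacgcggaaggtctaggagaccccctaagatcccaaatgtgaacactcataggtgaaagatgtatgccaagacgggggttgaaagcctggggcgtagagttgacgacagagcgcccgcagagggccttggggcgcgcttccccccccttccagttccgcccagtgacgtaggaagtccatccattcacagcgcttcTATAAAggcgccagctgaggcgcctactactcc
Fosb: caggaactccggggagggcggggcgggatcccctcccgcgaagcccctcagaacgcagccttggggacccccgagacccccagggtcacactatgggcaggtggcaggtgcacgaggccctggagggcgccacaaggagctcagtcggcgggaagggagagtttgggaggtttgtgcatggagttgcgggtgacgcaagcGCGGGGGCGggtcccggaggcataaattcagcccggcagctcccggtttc
Dusp1: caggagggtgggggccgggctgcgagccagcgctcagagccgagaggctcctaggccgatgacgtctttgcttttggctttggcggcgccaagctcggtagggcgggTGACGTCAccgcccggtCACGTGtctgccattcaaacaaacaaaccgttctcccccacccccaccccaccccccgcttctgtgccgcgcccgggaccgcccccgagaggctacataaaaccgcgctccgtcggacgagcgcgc

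The TATA match of Fos lies 33 to 28 bases before the start, the EGR match of Fosb 50 to 42 bases before it, and the CRE and E-box matches of Dusp1 143 to 136 and 126 to 121 bases before it. Among 32851 windows of the same length, searched on both strands, 12.4% hold TATAAA, 4.7% the EGR site, 1.55% the CRE and 6.02% the E-box. Of the 7 members with a window in the table (also Jun, Junb, Ier3 and Atf3), none held TGANTCA (AP-1, in 6.75% of windows) or a CArG box (in 1.47% of windows) in these 250 bases. A match is a run of letters and says nothing about binding, and the motifs do not overlap one another in these windows.

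A level is log2 of the processed spot signal minus the 75th percentile of that array, taken over probes well above background on all arrays, so a level of 0 means as bright as that percentile. Levels of different genes cannot be compared, since probes differ in brightness. No member was saturated on any array. All members were well above background on all 70 arrays except Fosb (54 arrays) and Junb (60). In KPT P3, T-LM P2 and K-LM P2 no sample had Fosb above background, and at P0 1 of 2 had, so Fosb levels in the first 3 groups are only upper bounds, and the P0 mean rests in part on one. At P2 and P3 Junb was above background in 1 of 2 samples of KPT P2, 1 of 2 at KPT P3, 2 of 3 at T-LM P3 and 3 of 5 at K-LM P3.

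Between 25.3% and 55.3% of all probes were well above background per array. The 70 arrays hold 65 RNA samples, because 5 of them (the 2 of P0, and 3 of KPT P6, its replicates 1, 2 and 4) went onto a further array on a slide read later with a newer software version, which also holds all 3 K-LM P6 samples. An index meant to track RNA quality, the mean level of 7 long mRNAs minus that of 59 ribosomal protein mRNAs, varied with passage. Whether it reflects RNA integrity was not tested. Its mean was -4.61 at P0, between -4.27 and -3.70 at P1, between -6.43 and -5.37 at P2 and P3, between -5.06 and -4.15 at P4, between -6.53 and -5.36 at P5 and between -4.91 and -4.33 at P6. A marker is counted as above background in a group where at least 1 array of the group had it so. Of 7 renal epithelial markers, Pax8, Krt8 and Krt18 were above background in all 19 groups and Pax2 in none, and at P0 Cdh16, Epcam and Cdh1 were not above background either. Fibroblast markers were also present: the summed level of 7 was -5.05 to -4.73 at P0 and higher in every passaged sample. The paper reports that cultures were kept until no GFP-negative cells were found. Which cells this marker RNA came from was not tested. In bulk RNA, fewer cells of a type and less RNA per cell cannot be told apart.

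The first question was whether the 10 genes follow passage number, and whether they do so alike in the 3 routes. By a straight line, no member was called in more than 1 route and none in KPT. Fos, the founding AP-1 partner of Jun, rose by 0.44 ± 0.10 (SE) log2 per passage in T-LM (26 RNA samples with P0, limma adjusted p = 0.00439), or 1.36-fold per passage. Ier3, an early gene that modulates ERK signalling and survival, rose by 0.36 ± 0.07 log2 per passage in K-LM (19 RNA samples, limma adjusted p = 0.00366), or 1.28-fold per passage. Throughout, a gene is called where its p, adjusted by Benjamini-Hochberg over all probes of the fit, is at most 0.01. By that rule 1 of 10 members was called in T-LM, where 5.05% of all probes were, 1 of 10 in K-LM (2.53% of probes) and 0 of 10 in KPT (4.99% of probes). In KPT limma also gave no member an unadjusted p under 0.05, against 4823 of 22147 probes.

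The members that came next in T-LM were Ier3 (0.26 ± 0.07, limma adjusted p = 0.0102), Fosb (0.40 ± 0.12, adjusted p = 0.0242) and Dusp1, a phosphatase that inactivates MAP kinases (0.19 ± 0.06, adjusted p = 0.0488). In K-LM they were Dusp1 (0.25 ± 0.08, adjusted p = 0.0718), Fosl1, the FRA-1 gene (0.30 ± 0.10, adjusted p = 0.0875), and Fos (0.39 ± 0.15, adjusted p = 0.125). None of these passed the threshold. All 10 slopes were positive in K-LM, 8 in T-LM and 5 in KPT, and their medians were 0.27, 0.11 and 0.01 against -0.01, -0.02 and -0.01 over all probes tested. The slopes share the 2 P0 samples. All 3 K-LM P6 samples lie on the late slide. In the K-LM straight-line fit the slide's effect comes from the 2 P0 samples and from the departure of these P6 samples from the line. Part of a change at P6 can therefore be taken as a slide effect there. In the K-LM fit of passage groups the slide's effect comes from the 2 P0 samples alone. The Fos slope in T-LM was 0.33 (adjusted p = 0.0232) without P0 replicate 1, 0.42 (0.0109) without the P1 sample labelled LOT1 and 0.30 (0.0807) without P5. The Ier3 slope in K-LM was 0.34 (0.0472) without P0 replicate 1, 0.32 (0.0485) without P0 replicate 2 and 0.14 (0.0840) in a single fit over all routes. With passage as a random block neither was called (Fos in T-LM 0.44, adjusted p = 0.0934, and Ier3 in K-LM 0.31, 0.267), nor with 9 slide terms (0.42, 0.0125, and 0.34, 0.0118). Without P6, Ier3 (0.39, adjusted p = 0.00155), Fosb (0.63, 0.00237) and Dusp1 (0.37, 5.69e-05) were called in T-LM as well, and Fos (0.73, 0.00938), Fosb (0.73, 0.00536) and Atf3 (0.35, 0.0055) in K-LM.

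**Figure D1:**
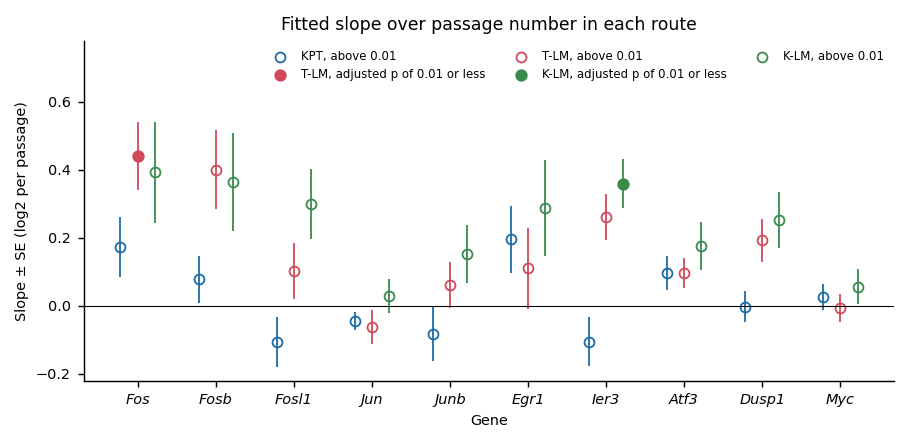
Fitted slope over passage number (log2 per passage, y axis) of the 10 genes (x axis) in KPT (blue), T-LM (red) and K-LM (green), with bars of 1 SE; filled points have a limma adjusted p of 0.01 or less. The filled points are Fos in T-LM at 0.44 and Ier3 in K-LM at 0.36, and the KPT points lie between -0.11 and 0.20.

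The levels behind the Fos slope do not climb step by step. At P0 the Fos levels were -5.83 and -2.99. In T-LM they were -3.62, -3.25, -2.76, -2.57 and -1.61 at P1, -2.07 and -0.35 at P2, -2.91, -1.70 and -1.60 at P3, and -1.67, -1.53, -1.40 and -1.09 at P4. The 6 T-LM P5 samples lay between -0.65 and 0.32 with a median of -0.12, and the P6 samples were at -2.19, -2.05, -1.82 and -1.57. P5 thus stood above every other T-LM passage except 1 of the P2 samples, and the 4 P6 samples lay below all 6 P5 samples.

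In K-LM, Fos was at -3.07 in the single P1 sample and -4.26 in the single P2 sample. It was -2.14, -1.76, -1.72, -1.62 and -1.17 at P3, -4.18, -1.47 and -0.99 at P4, -0.79, -0.78, -0.37 and -0.14 at P5, and -3.81, -3.46 and -3.36 at P6. P5 was again the highest passage, without overlap with any other, and all 3 P6 samples lay below the P1 sample. In KPT, P1 lay at -3.30, -3.11, -3.07, -2.40 and -2.26. The order of the later passages was another one: -1.82 and -1.23 at P2 and -1.99 and -1.69 at P3 were the highest, -4.50, -4.44 and -3.82 at P4 the lowest after P0, and P5 (-2.79, -2.79, -2.49, -2.48 and -2.14) and P6 (-2.10, -2.09, -1.99, -1.98 and -1.92) had means between these.

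Ier3 was tight and low at P0 (-2.11 and -2.00), and every passaged sample lay above both. In T-LM it was -0.65, -0.22, -0.12, 0.02 and 0.32 at P1, 0.06 and 0.20 at P2, -1.13, -0.90 and -0.87 at P3, and -0.02, 0.30, 0.50 and 0.59 at P4. The T-LM P5 samples lay between 0.50 and 1.54 with a median of 0.80, and P6 was at -0.14, -0.11, 0.04 and 0.15. P3 was the dip of that route, below all its other passages after P0.

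In K-LM, Ier3 was 0.53 at P1 and -0.96 at P2, then -0.93, -0.77, -0.31, -0.11 and 0.18 at P3, -0.28, 0.18 and 1.10 at P4, 0.49, 0.51, 0.83 and 0.84 at P5, and -0.26, -0.12 and 0.34 at P6. In KPT it was -0.35, 0.18, 0.24, 0.67 and 1.04 at P1, -0.73 and -0.57 at P2, -0.78 and -0.43 at P3, -1.36, -0.71 and 0.60 at P4, -1.54, -1.34, -0.89, -0.48 and 0.10 at P5, and -1.56, -1.50, -1.30, -1.14 and -1.07 at P6. The KPT means were highest at P1 and, after P0, lowest at P6, while both lung routes peaked at P5.

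**Figure D2:**
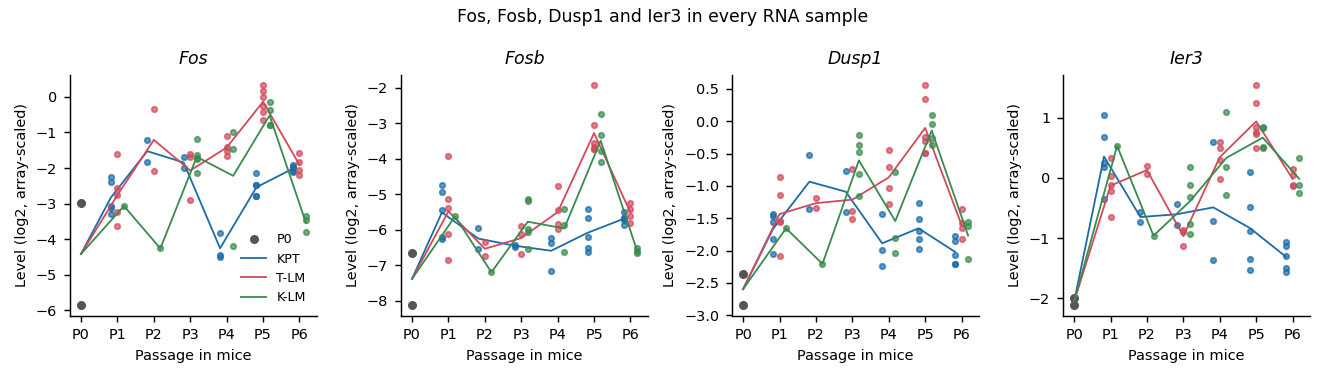
Levels (log2, array-scaled, y axis) of Fos, Fosb, Dusp1 and Ier3 in each RNA sample by passage (x axis), with P0 in grey, KPT in blue, T-LM in red and K-LM in green; lines join the group means. At P5 the T-LM and K-LM samples of all 4 genes lie above all KPT samples, and their P6 samples lie lower than their P5 samples.

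A test that does not assume a line asked whether a gene's level differed among the passages at all. It called 7 members in KPT (Fos, Fosb, Fosl1, Egr1, Ier3, Atf3 and Dusp1) where 30.5% of all probes were called, 7 in T-LM (Fos, Fosb, Fosl1, Jun, Egr1, Ier3 and Dusp1; 29.1% of probes) and 5 in K-LM (Fosb, Fosl1, Egr1, Ier3 and Dusp1; 9.28% of probes). The highest F in each route belonged to Fos in KPT (11.9, limma adjusted p = 6.36e-05), Ier3 in T-LM (34.2, adjusted p = 5.77e-08) and Fosb in K-LM (15.0, adjusted p = 0.000407). Fosb, Fosl1, Egr1, Ier3 and Dusp1 were called in all 3 routes. Myc, the growth regulator, was called in none (limma adjusted p = 0.0792, 0.164 and 0.598 in KPT, T-LM and K-LM), and neither was Junb (0.0325, 0.0371 and 0.0140). The KPT calls of Atf3 and Fosb were lost in 18 and 16 of the 24 fits that left out 1 sample, and that of Dusp1 in 4. Egr1 in T-LM (adjusted p = 0.0280 and 0.0223) and Egr1 (0.0260 and 0.0249) and Ier3 (0.0116 and 0.0139) in K-LM were not called without P0 replicate 1 or without P0 replicate 2, nor was Fosl1 in K-LM without P0 replicate 2 (0.0178) or Jun in T-LM without T-LM P6 replicate 2 (0.0103). With the replicate number as a block none of the 5 K-LM calls remained (adjusted p = 0.0357 to 0.0647).

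Of the 30 profiles of mean levels (10 members in 3 routes), 24 were lowest at P0, 14 were highest at P5 and 1 was highest at P6 (Junb in T-LM). The 3 profiles of a gene share the same 2 P0 samples, so a low P0 can count in each of them. The same counts were not made over all probes. P5 was the highest passage for 7 members in T-LM and 5 in K-LM but 2 in KPT (Jun and Egr1). No profile had a higher mean at every step than at the one before. The Dusp1 means in T-LM were higher than the preceding one at 5 of 6 steps, from -2.60 ± 0.34 (SD, n = 2) at P0 to -0.10 ± 0.45 (n = 6) at P5, before -1.60 ± 0.19 (n = 4) at P6. Within a route the passages next to each other in the order of means mostly overlapped: 13 of 18 such pairs for Fos, Ier3 and Atf3, 14 for Fosb, Egr1 and Dusp1, 16 for Fosl1, Jun and Junb, and all 18 for Myc. Pairing passages by neighbouring means favours overlap, while the single K-LM P1 and K-LM P2 samples cannot overlap each other. These pairs were not counted over all probes either.

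**Figure D3:**
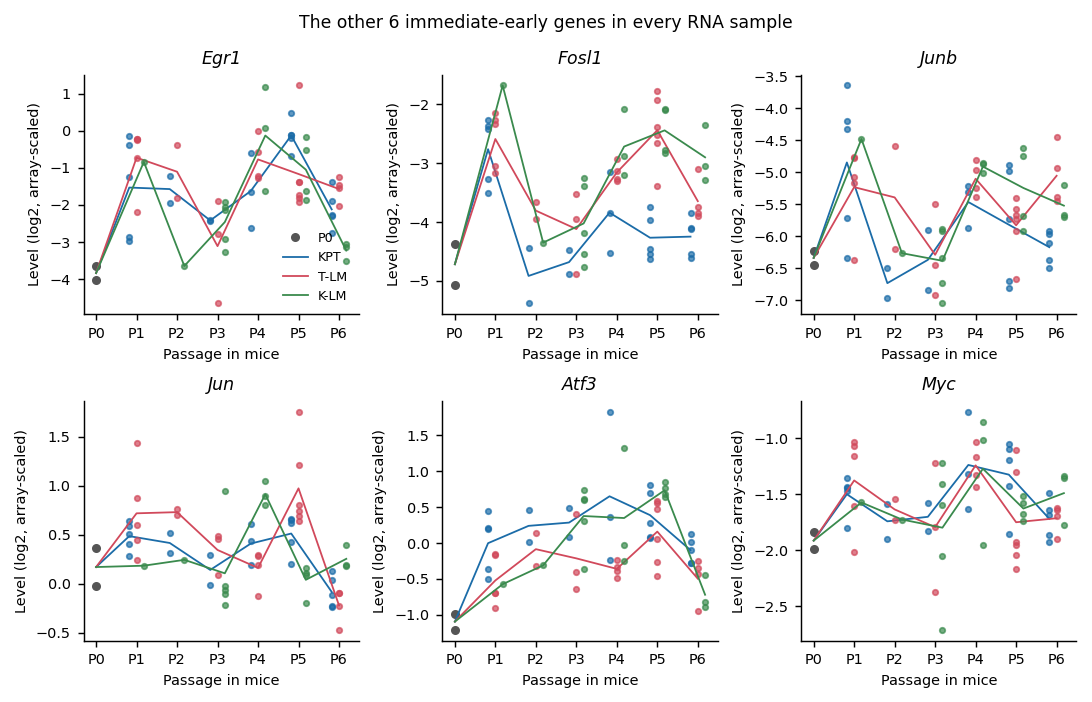
Levels (log2, array-scaled, y axis) of Egr1, Fosl1, Junb, Jun, Atf3 and Myc in each RNA sample by passage (x axis), with P0 in grey, KPT in blue, T-LM in red and K-LM in green; lines join the group means. Fosl1 means at P1 lie between -2.76 and -1.68, against -4.72 at P0, whereas Myc means stay between -1.92 and -1.24.

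Whether the routes differ needs the difference itself, which was tested on all 70 arrays. In this fit the slopes of the 3 routes start from 1 shared intercept, so they are not the slopes of the separate fits. For Ier3 in K-LM the slope was 0.14 here and 0.36 in the separate fit. A difference in slope can thus also hold a difference in level between the routes. The slopes of Fosl1, Ier3 and Dusp1 were steeper in both lung routes than in KPT. T-LM exceeded KPT by 0.22 ± 0.06 log2 per passage for Fosl1 (limma adjusted p = 0.00761), 0.24 ± 0.05 for Ier3 (adjusted p = 0.000334) and 0.18 ± 0.04 for Dusp1 (adjusted p = 0.00533), 3 of 10 members where 2.92% of probes were called. K-LM exceeded KPT by 0.25 ± 0.06 for Fosl1 (adjusted p = 0.00424), 0.23 ± 0.05 for Ier3 (adjusted p = 0.00122) and 0.18 ± 0.05 for Dusp1 (adjusted p = 0.00583), again 3 of 10 (5% of probes). The 2 comparisons share the KPT and P0 samples. Leaving out T-LM P5 replicate 2, 4, 5 or 6 left Ier3 alone called in the first (Fosl1 0.21 to 0.22, Dusp1 0.16 to 0.17), as did leaving out K-LM P5 replicate 2 or 5 in the second (Fosl1 0.23, Dusp1 0.17). Over all 65 such fits Ier3 was called in each, whereas Fosl1 was lost in 13 and 2 and Dusp1 in 6 and 6 for T-LM and K-LM, and with the RNA index as a covariate the K-LM difference of Dusp1 was 0.14 (adjusted p = 0.0212). With 9 slide terms Ier3 alone was called for T-LM (Fosl1 adjusted p = 0.0137, Dusp1 0.0123), and Dusp1 was not called for K-LM (0.0108), nor without the repeat arrays and slide term (0.16, 0.0308).

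Between the 2 lung routes no member's slope was called (0.747% of probes). The K-LM minus T-LM difference was 0.02 ± 0.06 for Fosl1, -0.01 ± 0.05 for Ier3 and 0.00 ± 0.05 for Dusp1, with -0.14 ± 0.08 for Fos the largest in size. The profile over P1 to P6 differed between routes, without assuming a line, for Fos (F = 8.62, limma adjusted p = 1.42e-05), Fosb (6.39, adjusted p = 0.000249), Ier3 (5.55, adjusted p = 0.000926), Dusp1 (5.42, adjusted p = 0.00114) and Jun (4.81, adjusted p = 0.00278), 5 of 10 members against 4.26% of probes. Myc had the lowest F (0.39, adjusted p = 0.985). Without the P1 arrays Ier3 had F = 3.77 and was not called (adjusted p = 0.0239), and with the index as a covariate Jun had 3.88 and was not called.

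The lung routes and the kidney route were also compared at P5, a passage picked after the levels had been seen. At P5, 5 members were higher in both lung routes than in KPT, and the samples did not overlap for any of the 5. How many of all probes had samples without overlap was not counted. For T-LM against KPT (5.77% of probes called) Fosb, a further FOS family gene, was 7.01-fold higher (2.81 ± 0.37 log2, limma adjusted p = 4.19e-07), Fos 5.29-fold (2.40 ± 0.37, adjusted p = 1.21e-05), Fosl1 3.55-fold (1.83 ± 0.29, adjusted p = 2.51e-05), Ier3 3.41-fold (1.77 ± 0.26, adjusted p = 4.28e-06) and Dusp1 2.93-fold (1.55 ± 0.23, adjusted p = 4.89e-06). For K-LM against KPT (5.73% of probes called) the same 5 were 6.04-, 4.05-, 3.54-, 2.83- and 2.85-fold higher in that order, with limma adjusted p between 1.01e-05 and 0.000593.

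The Fosb levels at P5 lay between -3.73 and -1.94 in T-LM (median -3.60), at -4.10, -3.79, -3.34 and -2.73 in K-LM, and at -6.63, -6.50, -6.20, -5.67 and -5.42 in KPT, where 4 of 5 samples were above background. Those of Dusp1 lay between -0.49 and 0.55 in T-LM (median -0.28), at -0.36, -0.26, -0.05 and 0.09 in K-LM and at -1.97, -1.83, -1.70, -1.51 and -1.27 in KPT. The smallest gap between a lung route and KPT was 0.35 log2, for Fosl1 in T-LM, where 1 sample at -3.38 lay near the highest KPT sample at -3.74. The remaining T-LM samples of Fosl1 were at -2.65 or higher.

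Samples of both kinds sat side by side on 5 slides, which allows the comparison within a slide, 1 sample against 1. For Fos the lung sample exceeded the KPT sample by 2.24, 2.67 and 2.78 log2 on the 3 slides with T-LM and by 2.65 and 1.34 on the 2 with K-LM. For Fosb the differences were 2.65, 2.37, 1.94, 3.16 and 2.53, and for Fosl1, Ier3 and Dusp1 all were positive as well, between 1.20 and 2.79. The P5 means of the RNA index in KPT, T-LM and K-LM were -5.36, -5.53 and -6.53, and with the index as a covariate the 5 differences were between 1.46 and 2.83 log2 and all were called. The summed fibroblast marker level overlapped between the routes, at -1.24 to 4.64 in KPT, 0.44 to 5.34 in T-LM and 0.59 to 1.83 in K-LM. Of 8 leukocyte markers, 8 were above background on at least 1 array of KPT P5, and all but Ptprc on at least 1 of T-LM P5 and of K-LM P5. Their summed levels in that order were 1.86 to 2.96, 1.47 to 2.13 and 1.14 to 1.65. The part of these markers in the P5 differences was not tested.

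The other 5 members were not called at P5 between a lung route and KPT. The K-LM samples of Jun (-0.20 to 0.16) nevertheless lay below all KPT samples (0.20 to 0.67). Jun was higher in T-LM than in K-LM, by 0.93 ± 0.19 log2 (limma adjusted p = 0.00125, 1.91-fold, 1 of 10 members where 2.72% of probes were called), with T-LM samples between 0.64 and 1.76 and K-LM samples at -0.20, 0.08, 0.11 and 0.16. Without K-LM P5 replicate 6 the K-LM minus T-LM difference was -0.85 and was not called (adjusted p = 0.0137). Egr1, a zinc finger factor induced through SRF, had its KPT maximum at P5 (-0.69, -0.19, -0.13, -0.12 and 0.48), while 5 of 6 T-LM samples lay between -1.92 and -1.38 and 1 at 1.22. The Egr1 differences of T-LM and K-LM from KPT were -1.04 ± 0.50 (limma adjusted p = 0.184) and -0.92 ± 0.55 (adjusted p = 0.283). Junb, Atf3 and Myc had adjusted p of 0.182 or more in all 3 comparisons.

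At P6 Ier3 was the only member called: it was 2.47-fold higher in T-LM than in KPT (1.31 ± 0.28 log2, limma adjusted p = 0.00177, 2.6% of probes called) and 2.41-fold higher in K-LM than in KPT (1.27 ± 0.32, adjusted p = 0.00714, 3.63% of probes called), and the P6 samples of KPT (-1.56 to -1.07) did not overlap those of T-LM (-0.14 to 0.15) or K-LM (-0.26 to 0.34). Fos differed by 0.14 ± 0.41 between T-LM and KPT (adjusted p = 0.977), against 2.40 at P5, and was lower in K-LM than in KPT by 1.59 ± 0.46, which was not called (adjusted p = 0.0222). No member was called between K-LM and T-LM (3.02% of probes), where Fos came nearest (-1.73 ± 0.51, adjusted p = 0.0288). K-LM P6 was measured on the late slide only, so its differences rest on the slide term from the repeat arrays. The Ier3 call of K-LM against KPT was lost without any of the 3 K-LM P6 samples or without KPT P6 replicate 1, 3 or 4 (1.09 to 1.39, adjusted p = 0.0144 to 0.0726), and that of T-LM without T-LM P6 replicate 2 (1.25, adjusted p = 0.0121). With 9 slide terms both Ier3 calls were lost, at 1.15 (adjusted p = 0.0310) for T-LM and 1.24 (0.0125) for K-LM.

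Averaged over the 3 routes with equal weight, the members moved in separate steps. In these averages K-LM has 1 sample at P1 and 1 at P2, and its P6 samples lie on the late slide only. From P0 to P1 (5.6% of probes called), Egr1 rose 6.65-fold (2.73 ± 0.64 log2, limma adjusted p = 0.00269), Fosl1 5.76-fold (2.53 ± 0.38, adjusted p = 5.16e-06), Ier3 5.01-fold (2.33 ± 0.33, adjusted p = 1.95e-06) and Fosb by 2.01 ± 0.47 log2 (adjusted p = 0.0027), with 1 of the 2 P0 samples above background for Fosb. Of the others, Junb (1.64 ± 0.47, adjusted p = 0.0153) and Fos (1.57 ± 0.48, adjusted p = 0.0219) missed the threshold. Without P0 replicate 1, Fosb (1.30, adjusted p = 0.258) and Egr1 (2.57, 0.0796) were not called, and without P0 replicate 2 Egr1 (2.91, 0.0442) and Fosl1 (2.14, 0.0101) were not. With normexp and quantile normalization the Fosb step was 0.90 (0.0331). The summed fibroblast marker level was also higher at P1, between -1.57 and 4.18, against -5.05 to -4.73 at P0, and its part in this step was not tested.

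From P1 to P2 (17.6% of probes called) Fosl1 fell by 2.01 ± 0.30 (limma adjusted p = 2.28e-06) and Junb by 1.28 ± 0.37 (adjusted p = 0.00756). The Junb call was lost without any 1 of 7 samples (-1.24 to -1.01, adjusted p = 0.0106 to 0.0482) and with normexp and quantile normalization (-0.67, 0.0430). From P2 to P3 limma called no member and 0.0119% of probes, with 1 member at an unadjusted p under 0.05. From P3 to P4 (24.9% of probes called) Egr1 rose 3.53-fold (1.82 ± 0.38, limma adjusted p = 0.000167), Junb by 1.19 ± 0.28 log2 (adjusted p = 0.000754, with P3 in part not above background), Fosl1 2.05-fold (1.04 ± 0.23, adjusted p = 0.000284) and Ier3 1.64-fold (0.72 ± 0.20, adjusted p = 0.00353). All 17 of 17 long mRNAs rose at the same step and 21 of 59 ribosomal protein mRNAs fell. With the RNA index as a covariate none of the 4 members was called at this step, at 1.42 log2 for Egr1 (adjusted p = 0.0813), 1.27 for Junb (0.0355), 0.61 for Fosl1 (0.214) and 0.78 for Ier3 (0.0657). The Junb call was also lost without KPT P3 replicate 2 (1.03, 0.0112), and that of Ier3 without KPT P3 replicate 1, KPT P4 replicate 1 or K-LM P4 replicate 3 (0.53 to 0.66, 0.0168 to 0.0239) and with the percentile taken over all probes (0.42, 0.0722). The fibroblast markers moved there too, with 5 of 6 tested rising.

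From P4 to P5 (19.9% of probes called) a different set moved: Fosb rose by 1.73 ± 0.25 log2 (8 of 10 P4 samples above background, limma adjusted p = 8.85e-07), Fos 2.96-fold (1.57 ± 0.25, adjusted p = 5.99e-06) and Dusp1 1.74-fold (0.80 ± 0.16, adjusted p = 8.98e-05). At this step 15 of 17 long mRNAs fell and 34 of 59 ribosomal protein mRNAs rose. With the index as a covariate the 3 changes were 1.92, 1.85 and 0.90 log2 and were called (adjusted p = 7.8e-05, 0.000164 and 0.00269). None of the 6 tested fibroblast markers was called at this step.

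From P5 to P6 (7.93% of probes called) no member had a positive estimate and 6 of 10 fell: Fosb by 1.79 ± 0.25 (limma adjusted p = 2.4e-06), Egr1 by 1.47 ± 0.34 (adjusted p = 0.00204), Fos by 1.46 ± 0.26 (adjusted p = 8.82e-05), Dusp1 by 1.08 ± 0.16 (adjusted p = 4.63e-06), Atf3, a stress-induced CREB family factor, by 0.87 ± 0.17 (adjusted p = 0.000421) and Ier3 by 0.72 ± 0.18 (adjusted p = 0.00341). These are means over the routes, which did not all move alike. In KPT the group mean rose from -2.54 at P5 to -2.02 at P6 for Fos and from -6.08 to -5.69 for Fosb. In T-LM and K-LM both genes fell. Egr1, Dusp1, Atf3 and Ier3 had lower means at P6 than at P5 in each route. With the index as a covariate Fos, Fosb, Egr1 and Dusp1 were still called, and Ier3 (adjusted p = 0.0585) and Atf3 (0.0485) were not. Without K-LM P6 replicate 2 Ier3 was at -0.68 (0.0114). The median of the 10 estimates was -0.80 against 0.03 over all probes. At this step 11 of 17 long mRNAs and 3 of 4 lung epithelial markers tested rose, with medians of 0.91 and 1.41 log2, and none of 6 fibroblast markers was called. The part of the lung markers was not tested. A step joins different RNA samples and cultures, and neighbouring steps share the samples of the passage between them.

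**Figure D4:**
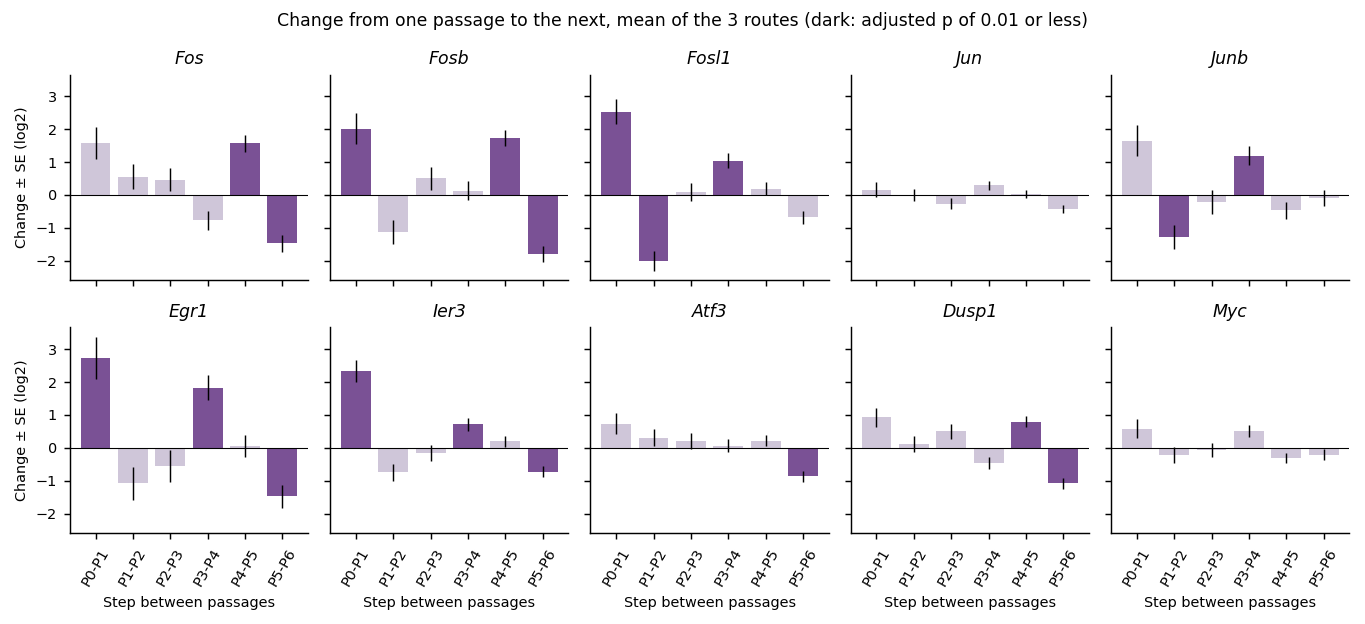
Change from one passage to the next (log2, y axis) averaged over the 3 routes for each gene, with bars of 1 SE, by step (x axis); dark bars have a limma adjusted p of 0.01 or less. Egr1, Fosl1, Ier3 and Fosb have dark bars at P0 to P1, Fos, Fosb and Dusp1 at P4 to P5, and 6 genes have dark downward bars at P5 to P6.

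**Figure D5:**
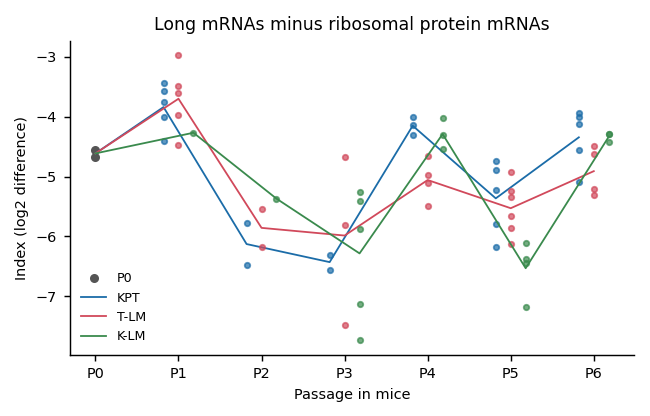
RNA index (mean level of 7 long mRNAs minus that of 59 ribosomal protein mRNAs, log2 difference, y axis) in each RNA sample by passage (x axis), with P0 in grey, KPT in blue, T-LM in red and K-LM in green; lines join the group means. The index is low at P2, P3 and P5 and higher at P0, P1, P4 and P6.

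The endpoints P0 and P6 were also compared directly. In KPT (4.95% of probes called) Fos was 5.33-fold higher at P6 than at P0 (2.41 ± 0.42 log2, limma adjusted p = 0.000281) and Fosb differed by 1.76 ± 0.41 log2 (adjusted p = 0.00614), again with 1 of 2 P0 samples above background. In T-LM (4.99% of probes) Fos was 5.9-fold higher (2.56 ± 0.60, adjusted p = 0.00705) and Ier3 4.21-fold (2.08 ± 0.25, adjusted p = 3.89e-06). In K-LM (3.45% of probes) Ier3 alone was called, 4-fold higher (2.00 ± 0.36, adjusted p = 0.00173). The 3 comparisons share the same 2 P0 samples. Fibroblast markers moved with them, with median differences of 3.42, 5.52 and 5.24 log2 in KPT, T-LM and K-LM (2 of 6, 4 of 7 and 3 of 7 called). In T-LM 3 of 8 leukocyte and 2 of 4 lung epithelial markers were called higher at P6. The 1 lung epithelial marker tested in KPT and in K-LM was called higher as well, by 1.24 and 2.46 log2. No leukocyte marker was called in those 2 routes. Their part in the endpoint differences was not tested. With 9 slide terms the Fos change in T-LM was 2.04 and was not called (adjusted p = 0.131).

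The Fos and Fosb endpoints rested on 1 of those samples. P0 replicate 1 had Fos at -5.99 and -5.67 on its 2 arrays and P0 replicate 2 at -2.94 and -3.04, so for Fos the P0 samples stood apart on both occasions. Fosb was at -8.20 and -8.01 in P0 replicate 1 and at -7.31 and -6.00 in P0 replicate 2. The 2 arrays of P0 replicate 2 thus differed by 1.31 log2 for Fosb, so its P0 level is poorly resolved. Without P0 replicate 1 the change from P0 to P6 was 0.98 for Fos (adjusted p = 0.0925) and 1.04 for Fosb (0.373) in KPT, and 1.03 for Fos in T-LM (0.510), and none was called. The Fosb change in KPT was also not called without KPT P6 replicate 1, 2, 3 or 4 (1.73 to 1.80, adjusted p = 0.0118 to 0.0172), nor that of Fos in T-LM without any 1 of the 4 T-LM P6 samples (2.45 to 2.65, adjusted p = 0.0110 to 0.0203). Ier3, at -2.11 and -2.00 in the 2 P0 samples, did not stand apart in this way, but in K-LM its change was not called without P0 replicate 1 (2.06, adjusted p = 0.0320), P0 replicate 2 (1.94, 0.0476) or K-LM P6 replicate 3 (1.83, 0.0117).

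From P3 to P6 limma called no member in KPT (2.74% of probes, 1 member at an unadjusted p under 0.05) or in K-LM (0.939% of probes, 4 members at an unadjusted p under 0.05). In T-LM (4.85% of probes) Ier3 rose 1.93-fold (0.95 ± 0.22, limma adjusted p = 0.00692), a call lost without either P0 sample or any 1 of the T-LM P3 and P6 samples (0.87 to 1.00, adjusted p = 0.0117 to 0.0245). The K-LM estimates of Fos, Fosb, Atf3 and Dusp1 were negative, between -1.97 and -1.04, with adjusted p from 0.0818 to 0.129.

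Genes of the wider immediate-early programme were read from lists. Among 19 other immediate-early transcription factors, 16 were tested in each route and none had a called trend. The largest slopes were Klf10 (-0.12), Fosl2 (-0.07) and Klf6 (0.07) in KPT, Maff (0.22), Egr2 (0.20) and Nr4a2 (-0.18) in T-LM and Maff (0.37), Egr2 (0.37) and Nr4a2 (-0.30) in K-LM, with limma adjusted p from 0.0232 to 0.554. The median slope of the list was -0.00, -0.04 and 0.10 in KPT, T-LM and K-LM. In the test of any difference among passages 7, 9 and 4 of the 16 were called, where 30.5%, 29.1% and 9.28% of all probes were.

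Of 15 feedback regulators of MAP kinase signalling and mRNA decay, 11 were tested per route, and Dusp6, the ERK phosphatase, rose with passage by 0.37 ± 0.08 in KPT (limma adjusted p = 0.00237) and 0.37 ± 0.08 in T-LM (adjusted p = 0.00251) and had 0.37 ± 0.09 in K-LM (adjusted p = 0.0131, not called). The list thus had 1, 1 and 0 of 11 called in KPT, T-LM and K-LM, where 4.99%, 5.05% and 2.53% of all probes were. Spry1 had slopes of 0.29, 0.34 and 0.24 in KPT, T-LM and K-LM (adjusted p = 0.133, 0.0277 and 0.170), Btg2 0.18 in KPT (0.0530), Tob1 -0.16 in T-LM (0.0130) and Dusp4 0.38 in K-LM (0.0219), none of them called.

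Secreted and surface genes downstream of AP-1, SRF or YAP had no called trend in KPT (16 tested), while 5 of 15 were called in T-LM and K-LM had 4 of 15, all rising, where 4.99%, 5.05% and 2.53% of all probes were called. The median slopes of the list in the same order were 0.04, 0.25 and 0.32. Those of the fibroblast markers were 0.23, 0.51 and 0.62, with 1 of 6, 0 of 7 and 1 of 7 called, and their part in the slopes of the list was not tested. Ptgs2, the inducible cyclooxygenase, rose by 0.80 ± 0.16 per passage in T-LM (limma adjusted p = 0.0014) and 0.92 ± 0.20 in K-LM (adjusted p = 0.0061), and Mmp13, a collagenase, by 0.81 ± 0.18 in K-LM (adjusted p = 0.00821). Mmp3 had 0.57 in T-LM, 0.75 in K-LM and -0.30 in KPT and Ccn2 0.68 in T-LM and 0.36 in KPT, none called, and Plaur 0.20 in KPT (adjusted p = 0.0422). The differences between routes in these slopes were not tested here.

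Trends in the lists around Myc and Atf3 were called for 1 of 5 Myc network genes in KPT and in T-LM, 1 of 10 Myc-driven growth genes in KPT and, of 7 Atf3 partners of the integrated stress response, 2 in KPT and 3 in T-LM. Over all probes 4.99% were called in KPT and 5.05% in T-LM. Of the 5 tested Myc network genes, Mxd4 fell by 0.20 per passage in KPT (limma adjusted p = 0.000988) and Mxd3 by 0.16 in T-LM (adjusted p = 0.00782), while Mxd1 had slopes of -0.21 (0.0173), 0.01 (0.932) and 0.26 (0.0245) in KPT, T-LM and K-LM. Of the Myc-driven growth genes, Nop56 was the one called, with 0.12 ± 0.03 in KPT (adjusted p = 0.00949). Nop58 and Rrs1 followed in KPT (0.08 and 0.07), Cad, Npm1 and Odc1 led in T-LM (0.08, 0.08 and 0.06) and Rrs1, Nop56 and Srm in K-LM (-0.17, -0.16 and -0.14), none called. In the integrated stress response, Ppp1r15a rose in KPT (0.22) and T-LM (0.19), Ddit3 in T-LM (0.26), Ddit4 fell in KPT (-0.20) and Chac1 in T-LM (-0.28), all with adjusted p of 0.00979 or less. In K-LM the same list had Ddit3 at 0.29 (adjusted p = 0.0196), Chac1 at -0.21 (0.0719) and Ppp1r15a at 0.16 (0.231), and Ddit3 had 0.17 in KPT (0.0152). No proliferation gene had a called trend in any route, the largest slope being that of Mki67 (-0.11, -0.14 and -0.17 in KPT, T-LM and K-LM).

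The members' levels across the 65 RNA samples were related in part, which is given as a description over samples that share groups, slides and the RNA index. Among 12901 named genes, the 3 with the highest Pearson correlation to Fos were Dusp1 (0.78), Fosb (0.74) and Ccn1 (0.70), and those to Dusp1 were Sertad1 (0.81), Fos (0.78) and Plk2 (0.74). To Fosb they were Edf1 (0.74), Fos (0.74) and Dusp1 (0.72). Fos, Fosb and Dusp1 were thus each among the 3 nearest of the others, apart from Fosb for Dusp1, and they are the 3 members that rose from P4 to P5 in the same samples.

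The other members had different neighbours. Fosl1 was most like Nbl1 (0.85), Kctd11 (0.84) and Slc41a2 (0.84), Ier3 like Hilpda (0.81) and Hcar2 (0.81), and Junb like Nek6 (0.83), Birc3 (0.82) and Socs3 (0.81). Egr1 was most like Ier2 (0.79), Btg2 (0.79) and Bmyc (0.77), which include further early response genes. Atf3 was most like Prr32 (0.72), Ddit3 (0.71) and Marchf7 (0.70), Jun like Marchf9 (0.72), Gnai2 (0.71) and Ecpas (0.70), and Myc like Polr3c (0.78), E130309D02Rik (0.76) and Rtcb (0.76). Between members, Fosl1 and Ier3 had 0.77 and Fosl1 and Junb 0.66, while Fos and Junb had 0.03 and Fos and Myc 0.00.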

How the data were processed

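Levels came from 70 single-colour arrays of 65 RNA samples in 19 groups. Per the file headers, the authors' scanner files hold a processed red-channel intensity for each spot, background-subtracted by Feature Extraction (11.0.1.1 on 8 slides, 12.0.2.2 on 1 slide). The deposited series table holds log2 values, which lay within 0.105 of the raw median signals once these were logged and quantile normalised, and which served as an alternative only. No deposited column of the authors' own comparisons was used.

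The 3671 control spots were left out, and spots of 1 probe were averaged over 59305 spots (55681 probes). A probe with a flagged value on any array of a fit was left out of that fit. Over all arrays there were 1567 such values of 1433 probes, none of them a member's. Gene symbols were matched by transcript accession to RefSeq (GRCm38.p6): 28026 probes had a symbol and 27655 had none. Each array was scaled by subtracting its 75th percentile over the 12219 probes well above background on all arrays. A probe was tested where 2 or more arrays of the fit had it well above background. limma 3.58.1 (R 4.3.3, statmod 1.5.0) was fitted per route with P0, and over all arrays for differences between routes, with the late slide as a term and arrays of 1 RNA sample joined by duplicateCorrelation (estimated on 4000 probes, 0.63 to 0.76). Adjusted p-values are Benjamini-Hochberg over all probes of a fit, and the threshold was 0.01. The trend tests a straight line over passage number. The fits were tested on simulated data. The number of arrays limits the precision.

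The members, gene lists and tests were chosen with earlier results of these data known. All 10 members are named, with the 3 largest slopes of each list and the 3 symbols most correlated with each member, except 1 symbol for Ier3 that is not reported here. One P1 sample (LOT1) was placed in T-LM by its labels without a replicate number. Alternatives were another percentile set, normexp with an offset of 50 and quantile normalisation, the deposited values, 2 other filters, no P1, no repeat arrays, 9 slide terms, a single fit, a random passage block, a replicate block, leaving out each sample and, chosen after seeing the data, leaving out each passage and the RNA index as a covariate. Residuals of samples with the same replicate number in different passages had median correlations of -0.03, -0.02 and 0.00 (KPT, T-LM, K-LM), so the numbers were not taken as pairs.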

Additional observations from a re-analysis of the deposited data

Results flagged for a closer look

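Among 90 groups of 4 to 6 samples tested over the 10 genes, 5 held a sample whose gap to its nearest neighbour was large for the range of its group, and chance gives about 1 in 20. Jun in K-LM P3 replicate 1 lay at 0.94 with the next sample at -0.03 (gap over range 0.833). Junb and Egr1 in the T-LM P1 sample LOT1 lay at -6.37 and -2.18, with the next samples at -5.17 and -0.75 (0.747 and 0.733). Egr1 in T-LM P5 replicate 1 lay at 1.22, above the next at -1.38 (0.825), and Myc in KPT P1 replicate 1 at -1.80, below the next at -1.47 (0.735).

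Differences between routes were tested directly. In limma, the slope over passage was steeper in T-LM than in KPT for Fosl1 (by 0.22), Ier3 (0.24) and Dusp1 (0.18), and steeper in K-LM than in KPT for Fosl1 (0.25), Ier3 (0.23) and Dusp1 (0.18). The profile over P1 to P6 differed between the 3 routes for Fos (F = 8.62), Fosb (6.39), Jun (4.81), Ier3 (5.55) and Dusp1 (5.42).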

How the results depend on the processing

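In the trends and from P0 to P6, no direction of a member with an unadjusted p under 0.05 was turned by any alternative run. In the other comparisons only called members were followed, and no direction of theirs was turned. The number of members called stayed within 1.5 times its value under every alternative other than leaving out a sample for the KPT trend, KPT P3 to P6, any difference in T-LM, the K-LM minus KPT and K-LM minus T-LM slopes, P6 of K-LM against T-LM, the interaction, the steps P0 to P1, P2 to P3, P4 to P5 and P5 to P6, and the 3 comparisons at P5. The 7 members with any difference in KPT became 4 with no filter on dim probes, 3 without P1 arrays, 4 with the replicate block and 4 with the RNA index as a covariate. The 5 in K-LM became 3 with 9 slide terms and 0 with the replicate block. The 1 member with a T-LM trend became 2 under the percentile over all probes, normexp and quantile normalisation, the deposited values, the filter on all arrays, the single fit, and without P1, P2 or P3, became 4 without P6, and became 0 with 9 slide terms, passage as a random block, the replicate block, the index, or without P4. The 1 with a K-LM trend became 2 without P1 or P4, 4 without P6, and 0 without P3 or P5, without the repeat arrays and slide term, with 9 slide terms, in the single fit, with passage as a random block and with the replicate block. From P0 to P6, the 2 in KPT became 1 with the filter on all arrays, the single fit and the replicate block. The 2 in T-LM became 1 with no filter, 9 slide terms and the replicate block, and the 1 in K-LM became 2 with 9 slide terms and in the single fit and 0 with the replicate block. From P3 to P6, the 1 in T-LM became 0 under the percentile over all probes, no filter, 9 slide terms, the single fit, the replicate block and the index, and the 0 in K-LM became 1 in the single fit. The 3 slopes of T-LM minus KPT became 1 with no filter and with 9 slide terms. At P6, the 1 in T-LM against KPT became 0 with 9 slide terms, and the 1 in K-LM against KPT became 0 with no filter or 9 slide terms and 2 without the repeat arrays and slide term. The 2 at P1 to P2 became 1 under the percentile over all probes, normexp, the deposited values, both other filters and the index, and the 4 at P3 to P4 became 0 with the index. The cause of these changes was not tested.

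Leaving out each RNA sample in turn, the members called ranged from 0 to 3 for the T-LM trend, 0 to 2 for the K-LM trend, 4 to 8 and 3 to 7 for any difference in KPT and K-LM, 0 to 3, 1 to 3 and 0 to 1 for P0 to P6 in KPT, T-LM and K-LM, 0 to 1 for P3 to P6 in T-LM, 1 to 4 and 1 to 3 for the slopes of T-LM and K-LM minus KPT, 0 to 1, 0 to 2 and 0 to 1 for P6 in T-LM against KPT, K-LM against KPT and K-LM against T-LM, 2 to 5 for P0 to P1, 1 to 3 for P1 to P2, and 0 to 1 for P5 in K-LM against T-LM. It left 5 called in both comparisons of a lung route with KPT at P5, 5 in the interaction and 3 at P4 to P5. The single K-LM P1 and K-LM P2 samples could not be left out of the interaction or of the steps that need them (63 or 64 fits in place of 65). Samples with the same replicate number were not paired, and the replicate block changed the counts given above and no other count by over 1.5 times. An alternative with other probes of a member could not be run, since each has 1. Fosb and Junb lie near background, so their low levels are poorly resolved.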
